A study of Helianthemum marifolium subsp. andalusicum and Helianthemum marifolium subsp. marifolium and Helianthemum marifolium subsp. molle with 16 samples.

Results

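This comparison set the leaf transcriptomes of 2 subspecies of the dwarf shrub Helianthemum marifolium, subsp. andalusicum and subsp. molle, against those of subsp. marifolium and subsp. origanifolium. It used the 18896 clusters of assembled transcripts that had 10 or more counts in each of the 16 libraries, out of 100462 clusters in the count table, so that it covers graded differences in level and leaves out presence and absence. Each subspecies had 4 libraries of poly-A RNA, which gives 8 libraries of andalusicum and molle and 8 of marifolium and origanifolium. All came from adult leaves of the upper nodes of plants that were raised from seed in 1 greenhouse regime and sampled 446 days after sowing, and the labels name no treatment. The titles give each subspecies 2 codes of 2 libraries, and the sources used here do not give what a code marks. Whether each library is a plant of its own is not stated in the labels, so the p-values cover only the spread among these libraries, which may be partly technical. A library is called by its subspecies and its title number.

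Helianthemum, the rock roses, are small shrubs of the Cistaceae that grow in dry, open places, and H. marifolium is a species of the western Mediterranean. When plants of different origin are grown side by side from seed, the growth site no longer differs with their origin. Seed and maternal conditions can still contribute to differences, as can position and handling. The library numbers here run in blocks by subspecies, so an effect that followed their order could not be told apart from subspecies. A difference in transcript level can lie in the regulation of a gene, in the number of its copies, or in how well reads of a divergent allele are assigned to an assembled transcript. A count per cluster does not tell these apart. In bulk leaf, fewer cells of a type and less RNA per cell cannot be told apart either. The files pair no gene names or functions with the clusters and hold no sequences, so clusters are described by their levels, no pathway or tissue marker could be looked up, and the leaf label could not be checked against marker genes. No account of the relationships or habitats of the subspecies was used here.

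Libraries held between 26908113 and 34121011 counts in andalusicum and molle, and between 22170314 and 32036854 in marifolium and origanifolium. The 18896 clusters took up 92.9% of all counts, between 90% and 94.8% per library. The limit of 10 counts was passed narrowly by 215 clusters, whose lowest library stood at exactly 10 and whose mean count per library had a median of 71.1, and was missed narrowly by 231 clusters with a lowest library at 9 and a median mean count of 63.1. The median size of the difference between the subspecies pairs was 0.54 log2 units in the clusters just inside the limit and 0.61 in those just outside. Marifolium 17 stood furthest from its own subspecies mean, with an SD over clusters of 0.761 log2 units, against 0.495 to 0.675 in the other 15 libraries.

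The first axis of variation among the libraries, found without the labels, separated andalusicum and molle from marifolium and origanifolium. On the first principal component of log2 counts-per-million (CPM), which held 15.0% of the variance, the 8 libraries of andalusicum and molle scored between -49.6 and -22, and the 8 of marifolium and origanifolium between 14.2 and 61.4. The second component, with 12.5%, was led by marifolium 17 at 92.3, while the other libraries lay between -44.3 and 36.7. Without marifolium 17 the first component kept the split, with a highest score of -20.2 in andalusicum and molle and a lowest score of 8.19 in the others. Without marifolium 12 and 18, a setting taken over from earlier work on these libraries, these scores were -19.4 and 16.5.

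**Figure D1:**
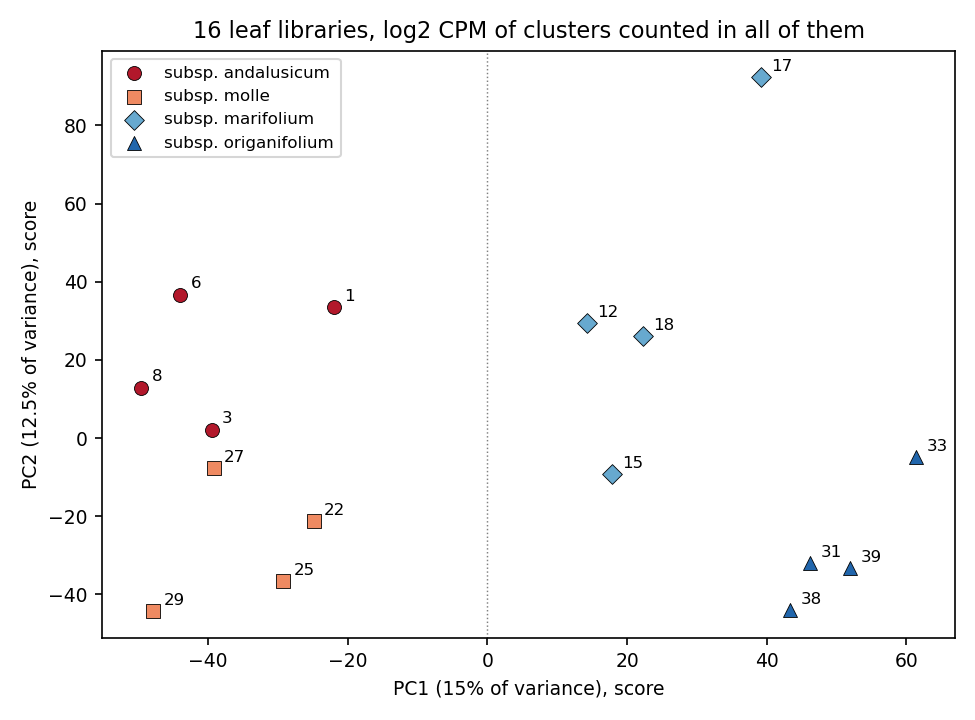
Scores of the 16 libraries on the first and second principal components (horizontal and vertical axes, with their share of variance) of log2 CPM over 18896 clusters, with library numbers beside the points. The libraries of andalusicum and molle lie at -22 or below on the first component, and those of marifolium and origanifolium at 14.2 or above.

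Distances between libraries followed the split less sharply. As distance, differences of log2 CPM were squared, averaged over the clusters and the square root taken, in log2 units. It averaged 1.12 ± 0.0732 between libraries of different pairs of subspecies (SD, 64 library pairs), 1.08 ± 0.0770 between the subspecies of a pair (32 library pairs), and 0.966 ± 0.105 within a subspecies (24 library pairs), and library pairs share libraries. Andalusicum and molle lay at 1.05 ± 0.0597, the shortest of the 6 distances between subspecies. Marifolium and origanifolium lay at 1.10 ± 0.0863, which was further than the 1.08 ± 0.0598 between molle and origanifolium, a distance across the split. The libraries of marifolium were themselves as far apart, at 1.10 ± 0.0982 (6 library pairs). Without marifolium 17 the distance of marifolium to origanifolium was 1.06 and that within marifolium 1.02, against 1.11 from andalusicum and 1.09 from molle to marifolium. Without marifolium 12 and 18 the distance of marifolium to origanifolium was 1.12, and that within marifolium 1.22.

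**Figure D2:**
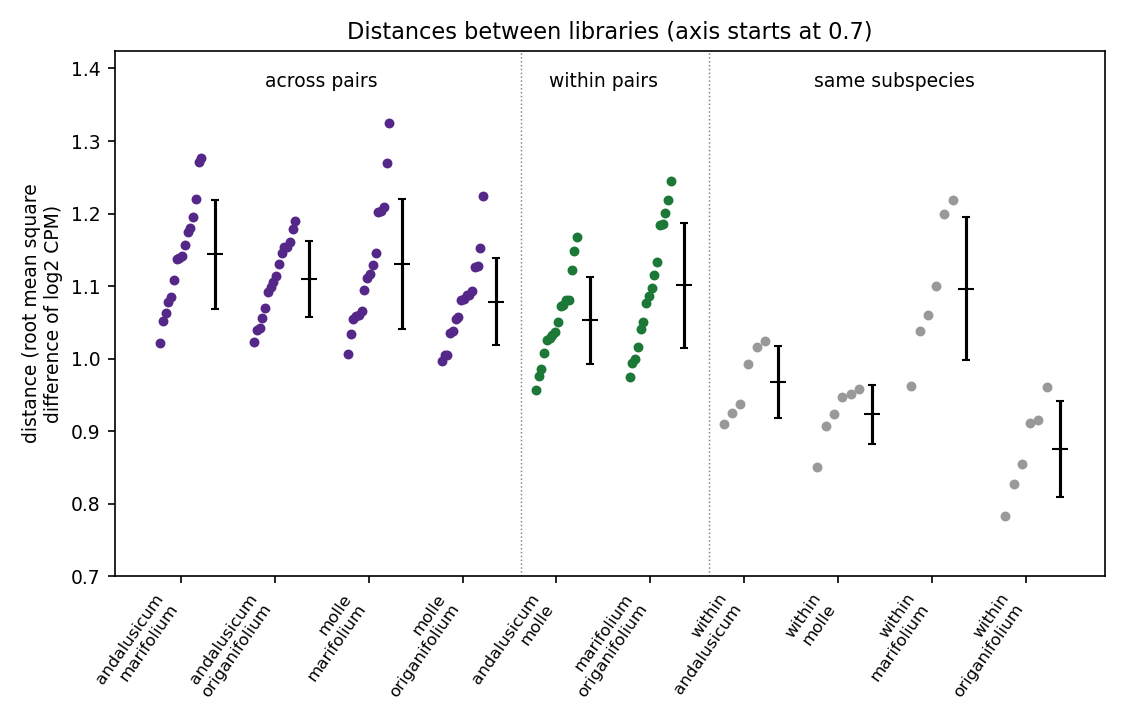
Each point is the distance between 2 libraries, in log2 units of root mean square difference over 18896 clusters, with mean and SD (bars) per pair of subspecies, and the vertical axis starts at 0.7. Andalusicum and molle had the shortest mean distance between subspecies at 1.05, and marifolium and origanifolium lay at 1.10, within the range of the 4 distances across the split.

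Between subspecies the split accounted for more of the variation than either difference within a pair. The sum of squares among the 4 subspecies means of log2 CPM divides into 3 parts of 1 degree of freedom each. The part of andalusicum and molle against marifolium and origanifolium held 40.6% of it, that of andalusicum against molle 28.5%, and that of marifolium against origanifolium 30.9%. The split had the largest of the 3 parts in 7026 clusters, or 37.2%, against 5325 (28.2%) for andalusicum against molle and 6545 (34.6%) for marifolium against origanifolium. Its share ran from 39.3% to 41.3% when each library was left out in turn. These shares are descriptions with no test, and part of each is the spread between libraries. Differences among subspecies made up 35.3% of all variation between libraries, so most of the variation lay within subspecies.

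In the contrast of the mean of andalusicum and molle with the mean of marifolium and origanifolium, 1127 of the 18896 clusters differed, which is 5.96% of them (p under 0.05 in edgeR's quasi-likelihood F-test after Benjamini-Hochberg adjustment). Of these, 521 (2.76% of those tested) were higher in andalusicum and molle and 606 (3.21%) were lower. The median change was 1.11 log2 units among the higher and -1.17 among the lower clusters, while over all 18896 clusters the median difference was -0.0026. Among the called clusters 687 changed by 1 log2 unit (2-fold) or more, 109 by 2 units (43 higher, 66 lower) and 15 by 3 units (6 higher, 9 lower). An unadjusted p under 0.05 was found in 4032 clusters, 21.3%. A wider fit took all 46027 clusters with enough counts for a test in at least 4 libraries, of whichever subspecies. With p-values adjusted over all of them, 2775 were called (6.03%). These were 919 of the 18896 (4.86%; 500 higher, 419 lower) and 1856 of the 27131 others (6.84%), which can be at 0 in some libraries. The balance of higher and lower calls thus turned with the clusters fitted, and with no filter on low counts it was 216 higher and 211 lower. Counts summed over the 2 libraries of each title code, which leaves 8 samples in place of 16, gave 200 calls, of which 195 were among the 1127. With all 16 libraries and the title code as a random block, limma voom called 843 (405 higher, 438 lower), at a correlation within codes of 0.0562. In the edgeR test the 1127 calls fell to 751 without andalusicum 8, 741 without molle 27 and 749 without origanifolium 39. The test takes the 4 subspecies as given, and with 2 of them on each side it does not extend to other subspecies.

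**Figure D3:**
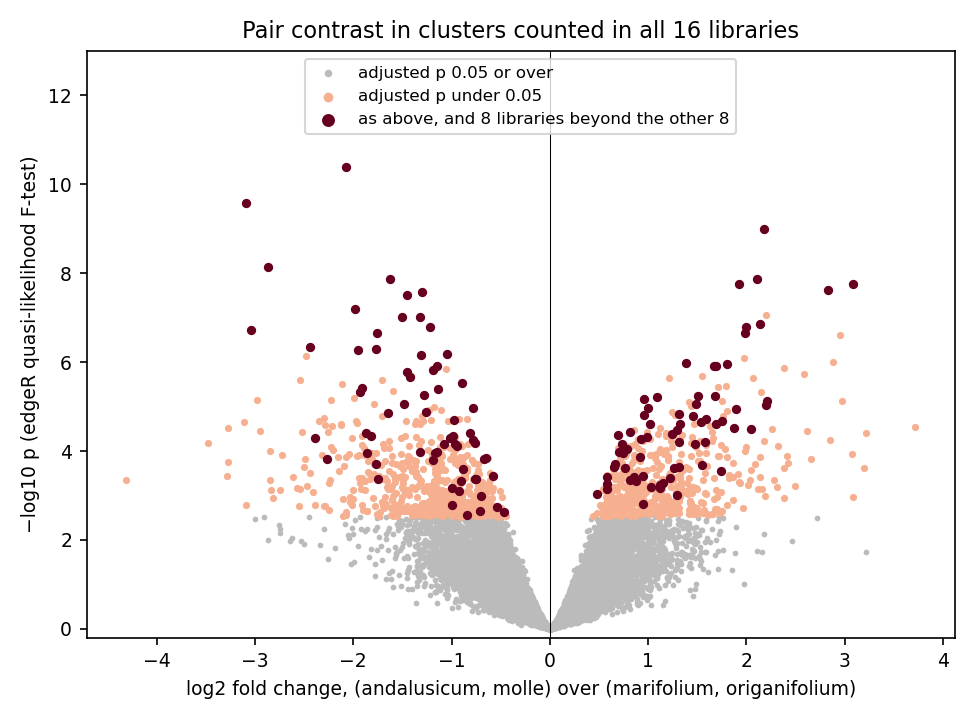
Each point is 1 of 18896 clusters, with its log2 fold change of andalusicum and molle over marifolium and origanifolium on the horizontal axis and −log10 of the unadjusted edgeR p on the vertical axis. Coloured points are the 1127 clusters with an adjusted p under 0.05, and dark points the 134 of them in which the 8 libraries of one side all lie beyond the 8 of the other.

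Within each pair of subspecies fewer clusters were called. Andalusicum and molle differed in 151 clusters (0.799%), with 72 higher in andalusicum and 79 lower. Marifolium and origanifolium differed in 122 (0.646%), with 50 higher in marifolium and 72 lower (edgeR, adjusted p under 0.05, same fit). These contrasts set 4 libraries against 4 and had a median standard error of 0.381 log2 units each, against 0.269 for the contrast of 8 libraries with 8, so the counts are not measured with equal precision. An unadjusted p under 0.05 was found in 2602 clusters between andalusicum and molle and in 3427 between marifolium and origanifolium. Over all tested clusters the median size of the difference was 0.344 log2 units between andalusicum and molle and 0.398 between marifolium and origanifolium. It was 0.3 for the contrast of 8 libraries with 8, which had the smaller standard error. With counts summed by title code the calls numbered 12 between andalusicum and molle and 0 between marifolium and origanifolium (1972 and 2614 at an unadjusted p under 0.05 in edgeR), while DESeq2 on all libraries called 759 and 1152. With no filter on low counts they numbered 54 and 23. Both counts moved with single libraries. For andalusicum and molle the count was 81, 61 and 91 without andalusicum 1, 6 and 8, and 67, 83 and 58 without molle 25, 27 and 29. For marifolium and origanifolium it was 78, 55 and 69 without andalusicum 1, 3 and 8, 79 and 62 without molle 22 and 25, 16 and 44 without marifolium 12 and 18, and 28, 39, 10 and 22 without origanifolium 31, 33, 38 and 39. The test took its estimate of the spread from all 4 subspecies.

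The share of clusters called was somewhat larger at higher levels. Of clusters under 5 CPM on average 4.20% were called (135 of 3218), of those at 5 to 20 CPM 5.46% (398 of 7292), of those at 20 to 100 CPM 7.07% (476 of 6730), and of those over 100 CPM 7.13% (118 of 1656). The median standard error was smaller at higher levels, at 0.368 log2 units under 5 CPM and 0.211 over 100 CPM, and called clusters were larger in change at low levels, with a median size of 1.42 log2 units under 5 CPM and 0.956 over 100 CPM. None of the 20 most abundant clusters, which averaged between 2790 and 23600 CPM, was called (edgeR, adjusted p between 0.0806 and 0.985). At an unadjusted p under 0.05 edgeR had 1 of them, and DESeq2 called 1. The nearest of them to a call stood at 4210 ± 1690 CPM in andalusicum and molle and 2290 ± 971 CPM in marifolium and origanifolium (SD, n = 8 each; edgeR adjusted p = 0.0806). The 521 higher clusters took up between 3.41% and 3.99% of a library's counts in andalusicum and molle and between 1.58% and 1.88% in marifolium and origanifolium. The 606 lower clusters took up between 1.58% and 1.99% in andalusicum and molle, between 3.57% and 3.92% in marifolium, and between 4.05% and 4.83% in origanifolium. As the clusters were chosen by this contrast, these shares describe its size and do not test it.

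Of the called clusters, 134 had all 8 libraries of andalusicum and molle beyond all 8 of marifolium and origanifolium, 69 of them above and 65 below, in a contrast that called 5.96% of clusters. Over all 18896 clusters, whatever their p, 72 were separated in this way upward and 66 downward. In the other called clusters at least 1 library overlapped with the other side.

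By the order of the 4 subspecies means of log2 CPM, the called clusters fell into 3 patterns. In 518 (46.0%) the gap between the nearest subspecies of the 2 sides was wider than the difference within either side, a stepped pattern. In 545 (48.4%) both subspecies of a side lay beyond both of the other, but a difference within a side was wider than that gap. In the remaining 64 (5.68%) the subspecies were interleaved, so that a subspecies of one side lay among those of the other. Among all 18896 clusters the shares were 11.5%, 26% and 62.6%, and a call makes the stepped pattern likelier by the way it is made. Of the 521 higher clusters the highest mean was in andalusicum in 264 and in molle in 257, and the lowest was in marifolium in 225, in origanifolium in 295 and in andalusicum in 1. Of the 606 lower clusters the lowest mean was in andalusicum in 329 and in molle in 277, and the highest was in origanifolium in 383, in marifolium in 219, in molle in 3 and in andalusicum in 1.

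Each of the 4 differences between a subspecies of one side and a subspecies of the other had a similar size in the called clusters. In the 521 higher clusters the median difference in mean log2 CPM was 1.03 for andalusicum over marifolium, 1.11 for andalusicum over origanifolium, 0.98 for molle over marifolium and 1.11 for molle over origanifolium. In the 606 lower clusters the medians were -1.04, -1.30, -0.98 and -1.20 in the same order. These differences share libraries with each other and with the call.

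**Figure D4:**
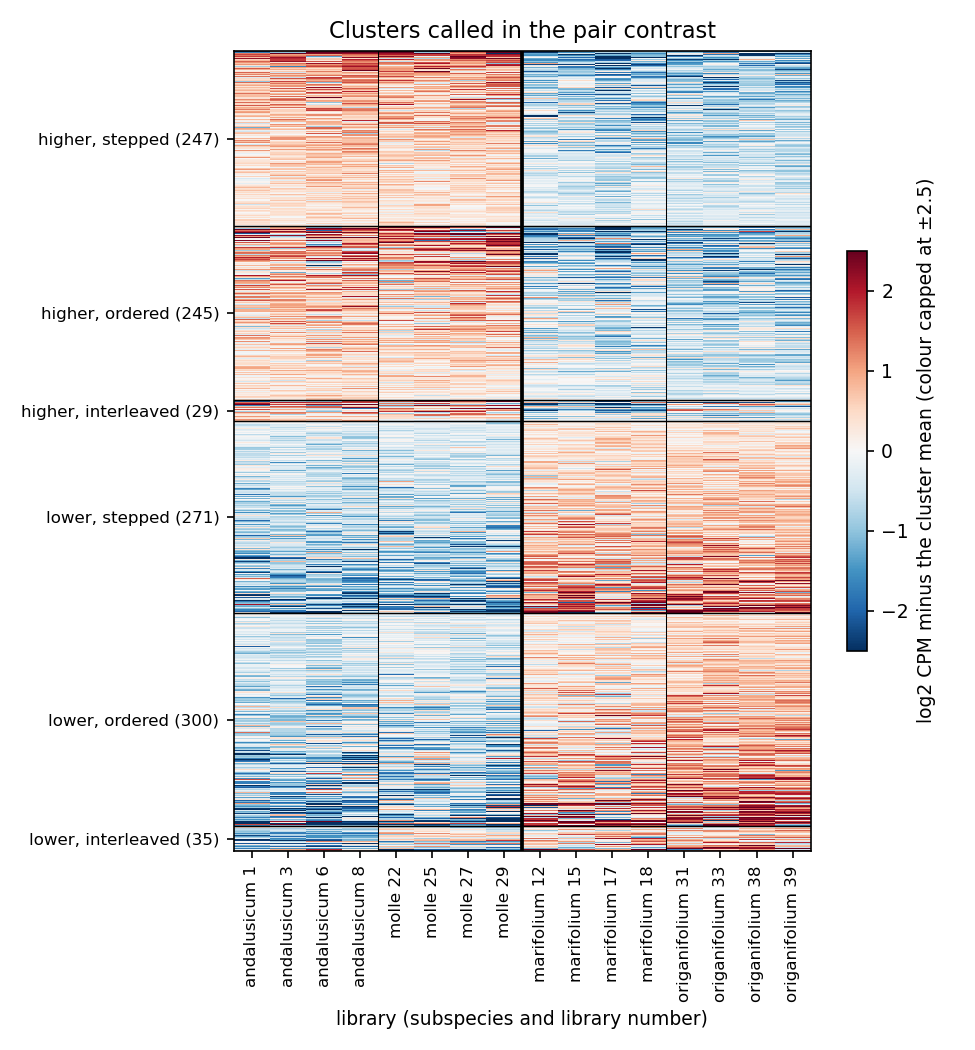
Log2 CPM of the 1127 called clusters (rows) in the 16 libraries (columns) as the difference from the cluster's mean, with colour capped at 2.5 units and rows grouped by direction and by the pattern of the subspecies means. The stepped groups, 518 clusters in all, change at the thick line between the sides, and the small interleaved groups (29 and 35) differ within a side.

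Single clusters are described next, first those with all 8 libraries of one side beyond the 8 of the other. For the clusters with identifiers the values of every library are given. The largest increase among them was in Cluster-3823.50438. It had 41.9, 26.7, 26.5 and 35.3 CPM in andalusicum 1, 3, 6 and 8 and 51.0, 42.3, 45 and 58.7 CPM in molle 22, 25, 27 and 29, against 4.72, 2.29, 6.23 and 5.66 CPM in marifolium 12, 15, 17 and 18 and 9.57, 3.61, 1.69 and 4.08 CPM in origanifolium 31, 33, 38 and 39. Every library of andalusicum and molle was thus more than 2-fold above the highest of the others. The log2 fold change was 3.08 ± 0.31 SE, which is 8.47-fold (edgeR adjusted p = 4.11e-05). Within the sides, the difference of andalusicum minus molle was -0.60 ± 0.40 log2 units and that of marifolium minus origanifolium 0.00 ± 0.41, neither of which passed the test (edgeR adjusted p = 0.550 and 1).

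Cluster-3823.44442, of 1 transcript of 1491 nt, was the increase with the smallest p of those remaining. In andalusicum it had 405, 434, 345 and 532 CPM and in molle 162, 248, 230 and 173 CPM, against 44.8, 52.9, 49.6 and 78.4 CPM in marifolium and 95.2, 75.6, 76.8 and 53.5 CPM in origanifolium. All andalusicum libraries lay above all molle libraries, and these above all the others, so the cluster had a graded order with an upper step within its own side. The log2 fold change was 2.18 ± 0.18 SE (edgeR adjusted p = 6.44e-06). The difference of andalusicum minus molle was 1.08 ± 0.25 log2 units and lay just outside the threshold (edgeR adjusted p = 0.0516).

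The largest decrease among them was in Cluster-3823.28638, of 1 short transcript of 367 nt. It had 1.68, 2.37, 2.60 and 3.43 CPM in andalusicum and 4.74, 4.45, 5.78 and 2.87 CPM in molle, against 30.0, 34.1, 15.8 and 29.1 CPM in marifolium and 27.4, 24.3, 28.6 and 39.9 CPM in origanifolium. Its lowest library on the high side was marifolium 17, at 15.8 CPM. The log2 fold change was -3.09 ± 0.23 SE, an 8.53-fold lower level in andalusicum and molle (edgeR adjusted p = 2.47e-06). At least 54 counts stood behind each of its values.

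The decrease with the smallest p, which was also the smallest p of the whole contrast, was in Cluster-3823.50556, of 1 transcript of 1825 nt. Its libraries lay close together, at 9.08, 7.69, 6.69 and 7.88 CPM in andalusicum and 9.98, 9.85, 10.7 and 8.82 CPM in molle, against 49.0, 40.8, 36 and 42.1 CPM in marifolium and 32.0, 31.3, 36.2 and 31.6 CPM in origanifolium. By subspecies it averaged 7.83 ± 0.981 CPM in andalusicum and 9.85 ± 0.787 in molle, and 42.0 ± 5.39 in marifolium and 32.8 ± 2.28 in origanifolium (SD, n = 4 each). The log2 fold change was -2.08 ± 0.14 SE, a 4.22-fold lower level (edgeR adjusted p = 7.78e-07). The calls of these 4 clusters were kept in the 28 alternatives run for each of them, or 27 for Cluster-3823.50438, whose lowest library had 43 counts and which the filter of 50 counts left out. They had adjusted p-values of at most 0.00842 for Cluster-3823.50438, 0.00573 for Cluster-3823.44442, 0.00573 for Cluster-3823.28638 and 0.00780 for Cluster-3823.50556. As these clusters were chosen for the largest change or smallest p and the alternatives reuse their counts, kept calls are no independent support.

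**Figure D5:**
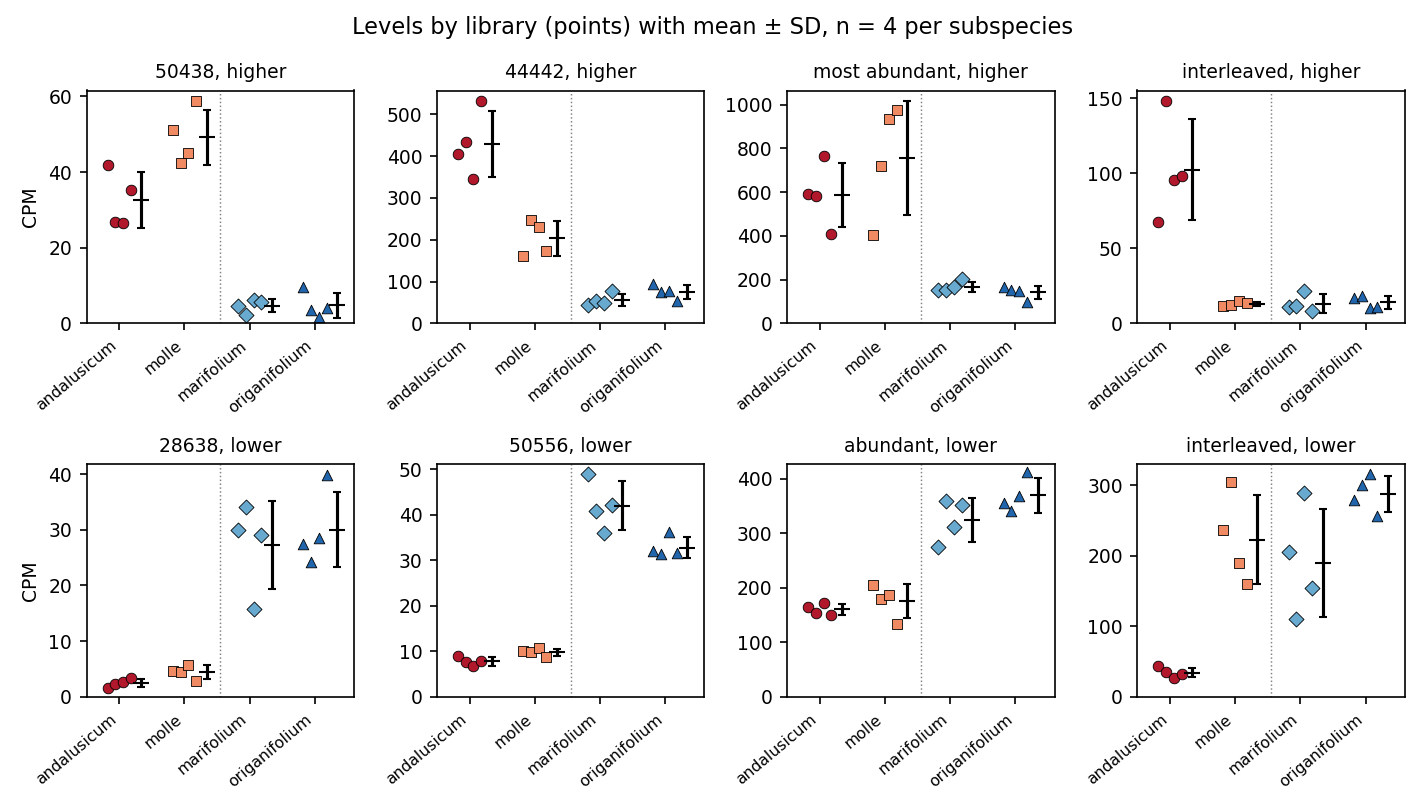
CPM of 8 clusters (panels) in the 4 libraries of each subspecies, with mean and SD (bars, n = 4), andalusicum and molle left of the dotted line. In Cluster-3823.50438 and Cluster-3823.44442 all 8 libraries of andalusicum and molle lie above the others, in Cluster-3823.28638 and Cluster-3823.50556 below them, and in both panels named interleaved the difference lies in andalusicum.

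The next 4 increases by size ran from 2.14 to 2.83 on the log2 scale. A transcript of 1895 nt had 56.5 ± 10.2 CPM in andalusicum and molle and 7.88 ± 3.87 CPM in marifolium and origanifolium (SD, n = 8 each). It was 2.83 ± 0.29 log2 units (SE) higher in andalusicum and molle (edgeR adjusted p = 4.94e-05). Its subspecies means were 49.1 CPM in andalusicum and 63.8 in molle, and 7.79 in marifolium and 7.97 in origanifolium. Neither difference within a side passed the test (edgeR adjusted p = 0.715 and 0.973). A cluster of 2 transcripts of 2194 and 2211 nt had 17.2 ± 5.61 CPM in andalusicum and molle and 3.82 ± 1.20 CPM in the others, 4.42-fold higher. The other two stood at 29.3 ± 12.0 CPM in andalusicum and molle and 6.35 ± 3.30 CPM in the others, and at 37.7 ± 13.3 CPM against 8.17 ± 5.22 CPM. The last of these shares an assembler gene name with a cluster that was not called, at 69.6 ± 34.9 CPM in andalusicum and molle and 53.1 ± 19.7 CPM in the others. Its log2 fold change was 0.41 ± 0.26 SE (edgeR adjusted p = 0.386). The sum of both was no longer called (log2 fold change 0.83, edgeR adjusted p = 0.0604).

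The 4 most abundant of the remaining increases were led by one at 672 ± 216 CPM in andalusicum and molle, against 155 ± 27.9 CPM in marifolium and origanifolium (log2 fold change 2.11 ± 0.21 SE, edgeR adjusted p = 4.11e-05). Its libraries ran from 402 to 975 CPM on the first side and from 100 to 201 CPM on the second. A cluster that shares its assembler gene name also rose, at 214 ± 194 CPM against 57.1 ± 9.49 CPM (log2 fold change 1.87 ± 0.33 SE, edgeR adjusted p = 0.00471), and ran up to 689 CPM in 1 library. Of the other three, one with a 2355 nt transcript had 217 ± 58.2 CPM in andalusicum and molle and 67.6 ± 22.1 CPM in the others, 3.22-fold higher. The remaining clusters were narrower in change, at 280 ± 27.5 against 177 ± 28.2 CPM (1.58-fold) and at 167 ± 18.1 against 112 ± 17.5 CPM (1.5-fold). A lack of overlap of libraries was a condition for their choice. Neither was called with counts summed by title code (edgeR adjusted p = 0.124 and 0.116), and the one at 167 ± 18.1 CPM also not without marifolium 12 and 18 (0.0651).

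The next 4 decreases by size ran from -3.04 to -2.39 on the log2 scale. The first had 5.15 ± 4.47 CPM in andalusicum and molle and 34.7 ± 8.29 CPM in marifolium and origanifolium (log2 fold change -3.04 ± 0.36 SE, edgeR adjusted p = 0.000186). It differed within its low side, at 8.11 ± 4.66 CPM in andalusicum and 2.19 ± 1.23 CPM in molle, a difference that did not pass the test (edgeR adjusted p = 0.0871), and molle 27 held 13 counts of it. A transcript of 2361 nt had 4.5 ± 1.91 CPM in andalusicum and molle and 33.0 ± 9.91 CPM in the others, 7.31-fold lower, with its lowest library on the high side, at 11.6 CPM, in marifolium 18. It shares an assembler gene name with 2 clusters that were not tested, of which one stood at 4.82 ± 4.99 CPM in andalusicum and molle and 1.36 ± 1.66 CPM in the others, and with the clusters summed the log2 fold change was -1.72 (edgeR adjusted p = 0.00159). A further cluster had 6.83 ± 3.12 CPM in andalusicum and molle and 35.6 ± 15.5 CPM in the others, 5.41-fold lower.

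The fourth of these decreases was in a cluster whose assembler gene did not show it. The cluster had 96.3 ± 73.6 CPM in andalusicum and molle and 507 ± 177 CPM in marifolium and origanifolium (log2 fold change -2.39 ± 0.45 SE, edgeR adjusted p = 0.00615). It shares its assembler gene name with a cluster at 562 ± 370 CPM in andalusicum and molle and 395 ± 140 CPM in the others (edgeR adjusted p = 0.504), and with another cluster at 395 ± 600 CPM against 53.0 ± 49.1 CPM that had under 10 counts in some library and was not tested. With the 3 clusters summed, the log2 fold change was 0.14 in andalusicum and molle over the others, of opposite sign and not called (edgeR adjusted p = 0.833). Its call was also lost with the libraries of each title code summed (0.0642).

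The 4 most abundant of the remaining decreases changed by 1.45-fold to 2.74-fold. A transcript of 2183 nt had 168 ± 22.8 CPM in andalusicum and molle and 347 ± 40.9 CPM in marifolium and origanifolium (log2 fold change -1.05 ± 0.14 SE, edgeR adjusted p = 0.000470). Its means were 160 ± 10.7 CPM in andalusicum, 176 ± 30.5 in molle, 324 ± 39.7 in marifolium and 369 ± 31.3 in origanifolium (SD, n = 4 each). Another had 86.7 ± 18.4 CPM against 241 ± 95.3 CPM, and the next 112 ± 14.7 CPM against 192 ± 31.5 CPM. That last cluster was not called with counts summed by title code (edgeR adjusted p = 0.0756). A transcript of 1574 nt had 350 ± 67.1 CPM in andalusicum and molle and 505 ± 33.3 CPM in the others, and its call stood close to the threshold (log2 fold change -0.54 ± 0.15 SE, edgeR adjusted p = 0.0397). It was lost without 1 of 14 of the libraries, every one except marifolium 17 and molle 25, at adjusted p-values from 0.0530 to 0.0732.

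Called clusters whose libraries overlapped are shown by 6 examples, chosen after their values were seen. The ordered increase with the smallest p stood at 39.9 ± 18.9 CPM in andalusicum and 188 ± 77.3 in molle, against 11.4 ± 6.17 in marifolium and 11 ± 2.21 in origanifolium (SD, n = 4 each; log2 fold change of the contrast 2.95 ± 0.36 SE, edgeR adjusted p = 0.000213). Molle was thus higher than andalusicum as well (log2 difference of andalusicum minus molle -2.23 ± 0.49 SE, edgeR adjusted p = 0.0417). The cluster that shares its assembler gene name did not pass the test, at 95.4 ± 84 CPM in andalusicum and molle and 68.3 ± 24.9 CPM in the others (edgeR adjusted p = 0.888), and the sum of both had a log2 fold change of 1.40 (edgeR adjusted p = 0.00971). In the ordered decrease with the smallest p origanifolium alone was far from the rest, with 1.54 ± 0.572 CPM in andalusicum and 1.63 ± 0.956 in molle, against 2.66 ± 0.592 in marifolium and 29.4 ± 13.8 in origanifolium (edgeR adjusted p = 0.000496). The difference of marifolium minus origanifolium was -3.46 ± 0.47 log2 units (edgeR adjusted p = 0.0120).

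Both examples of interleaved clusters had andalusicum apart from the other three subspecies. The increase with the smallest p, in a transcript of 2122 nt, stood at 102 ± 33.6 CPM in andalusicum and 13 ± 1.45 in molle, against 13.2 ± 6.00 in marifolium and 14 ± 4.15 in origanifolium (log2 fold change 1.42 ± 0.22 SE, edgeR adjusted p = 0.00214). Molle lay at the level of the other side, and the difference of andalusicum minus molle was 2.97 ± 0.33 log2 units (edgeR adjusted p = 0.000350). The corresponding decrease had 34.6 ± 6.70 CPM in andalusicum and 223 ± 63.2 in molle, against 190 ± 76.6 in marifolium and 288 ± 25.5 in origanifolium (edgeR adjusted p = 0.000924). It was not called when the sides were compared with no term for subspecies (edgeR adjusted p = 0.313), while the fold changes were larger in that fit for the interleaved increase (log2 2.08) and for the ordered decrease (log2 -3.33).

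The largest fitted changes of all were unevenly supported. The largest increase had 0.342, 3.85, 6.82 and 9.66 CPM in andalusicum and 22.3, 0.481, 17.3 and 24.3 CPM in molle, against 0.378 to 1.26 CPM in marifolium and 0.456 to 0.587 CPM in origanifolium. Andalusicum 1 and molle 25 lay at the level of the other side (log2 fold change 3.72 ± 0.66 SE, edgeR adjusted p = 0.00458), and the call was lost with limma voom and the title code as a random block (log2 fold change 2.98, adjusted p = 0.0806). With the clusters of its assembler gene summed the log2 fold change was 2.99 (edgeR adjusted p = 0.00732). The largest decrease had 3.81 to 53.5 CPM in andalusicum and 12.4 to 43.3 CPM in molle, against 1080, 4.51, 19.0 and 647 CPM in marifolium and 956, 77.0, 46.8 and 753 CPM in origanifolium (log2 fold change -4.31 ± 0.99 SE, edgeR adjusted p = 0.0180). Both subspecies of the high side held libraries with levels far apart, and the call was lost without marifolium 12 and 18 (log2 fold change -1.70, edgeR adjusted p = 0.202), with limma voom (-3.08, adjusted p = 0.162) and with the clusters of its assembler gene summed (-3.05, edgeR adjusted p = 0.0730). The cluster that shares its assembler gene name had a fitted change of opposite direction and was not called (edgeR adjusted p = 0.0521). It stood at 45.7 ± 97 CPM in andalusicum and molle, with libraries from 0.658 to 284 CPM, and at 6.3 ± 8.28 CPM in the others.

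Called clusters shared assembler gene names about as often as others did, with no test made. In all, 19.0% of the called and 19.3% of all 18896 clusters share an assembler gene name with some other cluster. Clusters of 1 large group of 1566 linked clusters were kept separate and count here as sharing none. Among the tested clusters 2169 shared one with another tested cluster, and 132 of these were called. Calls in opposite directions under 1 assembler gene name were found for 2 names, and 2 or more calls in the same direction for 11. With counts summed by assembler gene, 1079 of 18019 genes were called, 497 of them higher. A transcript length is given only in names as the assembler Oases writes them, so clusters with Trinity names alone have none. It is listed for 7357 of the clusters, with a median of 1670 nt. The medians were 1552.5 nt for the higher and 1926 nt for the lower clusters, over the 460 called clusters that have one, with no test made.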

How the data were processed

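Per the labels' protocols, poly-A RNA from adult leaves was fragmented and primed with random hexamers. The authors deposited raw counts per cluster of assembled transcripts, 1 column per library, and a list of the transcripts in each cluster. FastQC is named in the submitters' processing notes. Of the 122009 listed transcripts, 70183 have names as the assembler Trinity writes them and 51826 as the assembler Oases does. The sources used here do not otherwise state the assembly, and do not give the aligner, counter or strand setting. A transcript and its antisense partner therefore cannot be separated, and reads shared by alleles, paralogs or split clusters may have been divided among them. All columns were matched to libraries by title. Libraries of a subspecies differed by more than sampling noise (chi-square per degree of freedom 89.8 to 216).

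Clusters with 10 or more counts in all 16 libraries were tested with edgeR 4.0.16 in R 4.3.3. The fit used TMM normalisation on whole library totals, the 4 subspecies as groups and the quasi-likelihood F-test, with Benjamini-Hochberg adjustment over the 18896 clusters and a threshold of 0.05. Common dispersion was 0.198, which is a coefficient of variation of 44.5%. Log2 CPM used a prior count of 2, and SE comes from the F statistic. Alternatives used limma 3.58.1 and DESeq2 1.42.0. Clusters were joined into assembler genes by the gene or locus part of their transcript names. Clusters said to share a name may be joined only through another cluster, and Trinity and Oases names only through a cluster that holds both. In 1 group of 1566 linked clusters, each cluster was kept separate.

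The comparison, the filter and the rules were chosen with earlier results of these data known. In each direction, named clusters were called ones with no overlap of libraries: the largest change, the smallest p of the rest (both with identifiers), the next 4 by change and then the 4 of highest level.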

Additional observations from a re-analysis of the deposited data

Results flagged for a closer look

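In 4 of the 108 sets of 4 libraries checked (26 clusters described singly and the library totals, in each subspecies), 1 library lay far from the other three relative to their range, where chance alone gives about 1 in 20. Marifolium 18 had 19.0 CPM of the increased cluster at 37.7 ± 13.3 CPM in andalusicum and molle. The other marifolium libraries had 4.08 to 5.32 CPM of it. Origanifolium 38 had 36.2 CPM of Cluster-3823.50556, against 31.3 to 32.0 CPM in the other libraries of origanifolium. Origanifolium 33 had 253 CPM of the decreased cluster that changed sign with its assembler gene summed, against 613 to 667 CPM in the other origanifolium libraries. Marifolium 17 had 137 CPM of the decreased cluster at 112 ± 14.7 CPM in andalusicum and molle and 192 ± 31.5 CPM in the others, against 213 to 228 CPM in the other marifolium libraries.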

How the results depend on the processing

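The 1127 calls of the contrast numbered 2010 with DESeq2, 427 with no filter on low counts, 688 with no term for subspecies, 200 with the libraries of each title code summed and 23 when tested against a change of 2-fold, and 741 to 980 without 1 library. Calls without overlap of libraries (134) numbered 14 against 2-fold, 245 without marifolium 12 and 18, and 142 to 194 without 1 library. With fewer libraries a lack of overlap is easier to reach by its definition, so these rises do not measure support. Stepped calls (518) numbered 817 with DESeq2, 232 with no filter, 119 with codes summed, 16 against 2-fold and 355 to 470 without 1 library. Andalusicum and molle differed in 759 clusters with DESeq2, 78 with the fit over 46027 clusters, 54 with no filter, 12 with codes summed and 58 to 167 without 1 library. Marifolium and origanifolium differed in 1152 with DESeq2, 51 with that fit, 23 with no filter, 72 with limma voom and the code as a random block (correlation within codes 0.0562), 8 without marifolium 12 and 18, and 10 to 165 without 1 library. With codes summed edgeR called 0 of these, with 2614 at an unadjusted p under 0.05. The share of the sum of squares on the split ran from 39.3% to 41.3% without 1 library. Of the 26 clusters described singly, 14 were not called against 2-fold. One decrease changed sign with its assembler gene summed (log2 0.14), as given above. In all, 149 clusters (72 higher, 77 lower) were called in 25 alternatives, 61 of them without overlap of libraries; these leave out the test against 2-fold (23 calls), the filter of 50 counts and the sums by assembler gene. No paired analysis was possible because the library numbers are not shared between subspecies. The causes were not tested. Changes were measured less precisely at low levels: clusters under 5 CPM had a median SE of 0.368 log2 units, against 0.211 over 100 CPM.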
